A study of Mus musculus with 8 samples.

Results

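The collagen genes of colitic mouse colon were taken as all rows of the deposited count table whose symbol is Col, a number, the letter a and a number. The rule found 44 genes among 18806. The table held 8 libraries of colon RNA, each from a separate mouse with colitis induced by dextran sulfate sodium (DSS), which damages the epithelial lining of the large bowel. Of these, 4 mice received DSS alone (the DSS group), and the other 4 received DSS and Alistipes putredinis, a gut bacterium (the DSS+AP group). The 4 mice of each group were drawn at random for sequencing. Both groups received DSS, and the labels give neither strain, age, sex, dose nor day, nor the stretch of colon taken. The comparison asks how the collagen transcripts of an injured colon differ when the bacterium is also given.

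Collagens are trimers of chains that wind around each other in a triple helix. Fibrillar collagens (types I, II, III, V, XI, XXIV and XXVII) build the banded fibrils of the gut wall. Type IV collagen forms the sheet of basement membranes under epithelium, around vessels and around muscle fibres. Types VI, VIII and X make beaded filaments or hexagonal nets, and fibril-associated collagens (types IX, XII, XIV, XVI, XIX, XX and XXII) sit on the surface of fibrils. A few members (types XIII, XVII, XXIII and XXV) span the cell membrane. In the gut, fibroblasts and smooth muscle cells make most of the fibrillar chains, and collagen deposition is part of both the repair and the scarring of an inflamed bowel.

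Collagen genes were called lower in DSS+AP colon in every class. Of the 44 genes, 37 had enough counts to be tested and 7 did not. Of the 37 tested, 27 were lower at an edgeR adjusted p under 0.05, 0 were higher and 10 did not pass. At an unadjusted p under 0.05 the higher count was 1 and the lower count 31, and DESeq2 called 27 lower and 0 higher, with Col4a5 in place of Col4a4. Over all 14578 genes tested, 20.4% were called lower and 8.84% higher. The median log2 fold change of the tested members was -1.08, that of all genes tested 0.02. A negative value means a lower level in DSS+AP, and fold changes carry their standard error, from 4 mice per group. Falls of at least 2-fold that passed numbered 21 among the members and rises of that size 0; over all genes tested 11.7% had such a fall and 0.727% such a rise. In 23 members every DSS+AP library lay below every DSS library, and in 0 above; over all genes these shares were 19.6% and 10.8%. The filter on low counts was met in all 8 libraries by 31 of the tested members, of which 24 were lower and 7 did not pass. Col9a2, Col11a1 and Col4a4, all called lower, met it in 4 DSS libraries but in 2, 3 and 0 DSS+AP libraries, so their entry into the test rests on the DSS group. All of them are also among the 21 falls, the 23 members without overlap and the counts by class.

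**Figure D1:**
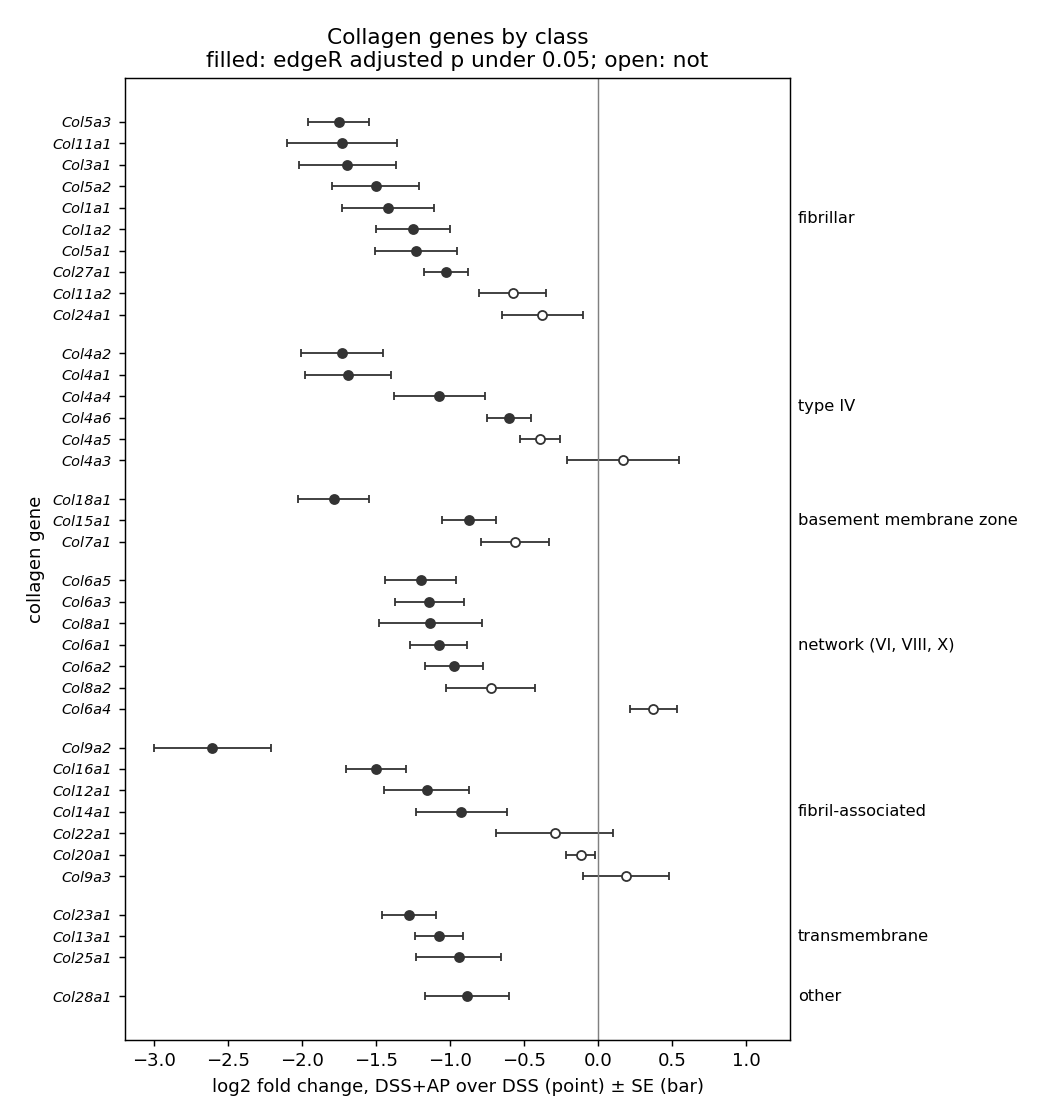
Log2 fold change of each tested collagen gene, DSS+AP over DSS (points, x axis), with its standard error (bars), grouped by class; filled points passed an edgeR adjusted p of 0.05 and open points did not. Points lie left of 0 for 34 of the 37 genes; Col9a2 is farthest left at -2.61 and Col6a4 farthest right at 0.37.

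Together the 44 genes took 0.910%, 0.384%, 0.531% and 0.687% of all counts in DSS 1 to DSS 4. In DSS+AP 1 to DSS+AP 4 the shares were 0.187%, 0.314%, 0.191% and 0.211%. The groups did not overlap, but DSS 2, the lowest DSS library, and DSS+AP 2, the highest DSS+AP library, were close. The make-up of this collagen pool differed as well, described here without a test. Network collagens took 14.6% ± 1.51 of collagen counts in DSS and 19.6% ± 1.60 in DSS+AP (mean ± SD, n = 4 per group), with ranges of 13.2% to 16.01% and 17.5% to 20.9% that did not overlap. Fibrillar genes took 55.9% ± 3.59 and 53.0% ± 1.70, overlapping. Type IV genes went from 17.5% ± 1.24 to 15.1% ± 0.559, and Col3a1 alone from 31.3% ± 3.64 to 26.7% ± 1.16, both with touching or overlapping ranges.

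**Figure D2:**
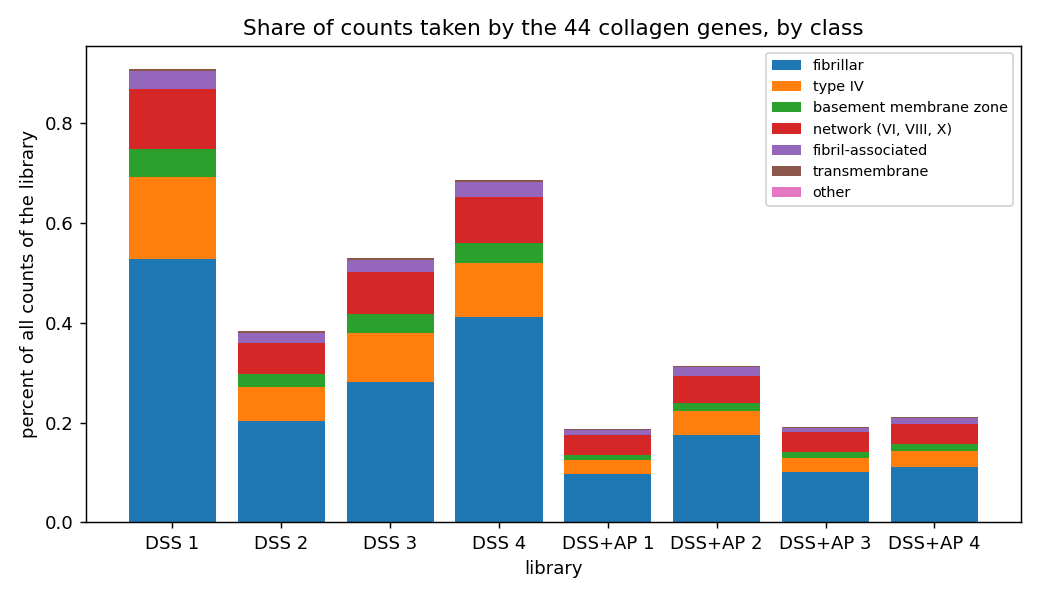
Percent of each library's counts taken by the 44 collagen genes (y axis), one bar per library, stacked by class. The DSS bars reach 0.384 to 0.910 percent and the DSS+AP bars 0.187 to 0.314 percent.

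Cell type markers moved in these libraries too. For scale, 20.4% of all genes tested were called lower and 8.84% higher. Groups did not overlap in 19.6% (lower) and 10.8% (higher) of them. Of 15 fibroblast markers, 13 were lower and 0 higher (median -1.08), and their summed level was 1002 to 1730 CPM (counts scaled to a common depth) in DSS and 643 to 834 CPM in DSS+AP. The 15 smooth muscle markers, 14 of them lower (median -0.91), summed to 3314 to 5260 and 1675 to 3099 CPM. Endothelial markers were lower in 13 of 13 (median -1.22), summing to 268 to 455 and 147 to 195 CPM. Enteric glia markers were lower in 5 of 6, with no overlap between groups in each of the 5. Of these, Foxd3 (3 to 8 counts per DSS+AP library) and S100b (9 to 16) met the filter on low counts in 4 DSS libraries but not in all DSS+AP libraries. The entry of both into the test rests on the DSS group. The sums over the glia markers, 284 to 464 and 251 to 377 CPM, overlapped, and most of each sum was Erbb3, also an epithelial gene, at 342 ± 93.1 and 327 ± 60.1 CPM, which did not pass. Of 15 epithelial markers, 5 were higher and 1 lower (Tff3, at -0.84), with a median of 0.28. Epcam, an epithelial adhesion gene, stood at 1679 ± 50.1 and 1842 ± 131 CPM (mean ± SD, n = 4 per group). It did not pass (0.13 ± 0.08; edgeR adjusted p = 0.233), and its groups overlapped. Posterior Hox genes, which mark position along the gut, averaged 3.13 log2 CPM in DSS (2.43 to 3.71) and 1.80 in DSS+AP (1.04 to 2.22). These list means did not overlap, although 0 of the 7 genes tested, of 10 listed, passed in edgeR and the groups of each overlapped. Log2 changes of the 7 ran from -3.89 for Hoxb13 to 0.41 for Hoxd9, with a median of -0.66 and 6 negative. Hoxb13 thus weighs most in the difference of the list means, and means without it were not compared. Hoxb13 ran from 4.12 to 123 CPM in DSS and from 0 to 13.1 CPM in DSS+AP (-3.89 ± 1.36; edgeR adjusted p = 0.0608, unadjusted 0.0196; limma-voom adjusted 0.0251). Hoxa10 ran from 26.0 to 57.6 CPM in DSS and from 6.26 to 79.6 CPM in DSS+AP (-0.37 ± 0.62; edgeR adjusted p = 0.671). Of 8 cartilage markers, 3 were tested and none passed in edgeR: Sox9, which gut epithelium also expresses, at 40.5 ± 14.5 and 48.9 ± 2.61 CPM, Hapln1 at 2.06 ± 0.817 and 1.42 ± 0.310, and Chad at 2.48 ± 0.904 and 3.05 ± 1.43. The other 5 were lower still, with Acan, Matn1 and Matn3 at or near 0. In bulk tissue, fewer cells of a type and less RNA per cell cannot be told apart, and the part that cell make-up or gut position has in the falls of collagen genes was not tested. With the smooth muscle mean as a covariate edgeR called 0 of the 37 members (5 lower at an unadjusted p under 0.05; median -0.38), and with the posterior Hox mean 0 as well (22 lower unadjusted; median -1.05). Either covariate left 0 calls among all 14578 genes. The muscle mean was 6.94 to 7.56 log2 CPM in DSS and 5.92 to 6.81 in DSS+AP. Neither it nor the Hox mean overlapped between groups, so these fits cannot tell the covariate from the group.

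**Figure D3:**
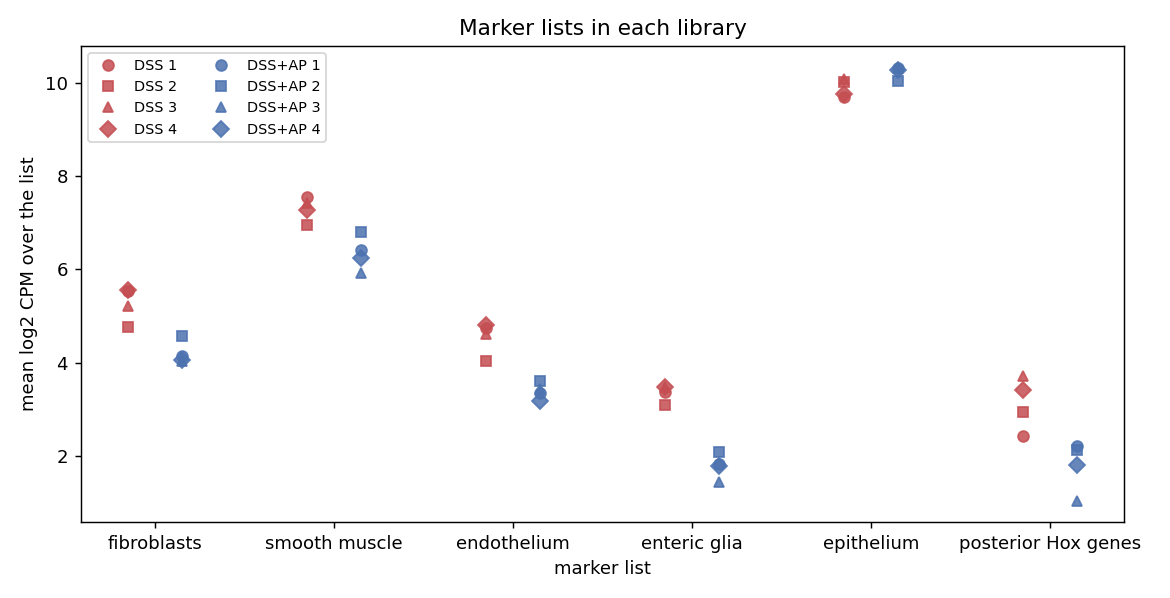
Mean log2 CPM (y axis) of 6 marker lists in each library; colour gives the group and the symbol the library number. For fibroblasts, smooth muscle, endothelium and glia all DSS libraries lie above all DSS+AP libraries, with DSS 2 (squares, red) and DSS+AP 2 (squares, blue) nearest to each other.

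Fibrillar genes were the most abundant class, and 8 of the 10 tested members fell, each by at least 2-fold (class median -1.34). Col3a1, whose type III homotrimers are typical of distensible organs and early repair (gene 12825; chromosome 1, 45311538 to 45349706, GRCm38.p6), was the most abundant collagen per length, at 358 CPM per kb of transcript in DSS and 110.4 in DSS+AP. It stood at 2869.8, 1026, 1564 and 2504 CPM in DSS 1 to 4 and at 508, 881, 509 and 559 CPM in DSS+AP 1 to 4. Every DSS+AP library lay below every DSS library, although DSS+AP 2 came within reach of DSS 2. The change was -1.70 ± 0.33 (edgeR adjusted p = 0.00714). Values by library are given in that order throughout.

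Type I collagen, the main load-bearing fibril, is built from 2 chains of Col1a1 and 1 of Col1a2. Col1a2 (gene 12843; chromosome 6, 4505618 to 4541543) was at 821, 384, 503 and 716 CPM in DSS and 209.5, 347, 223 and 239 CPM in DSS+AP, a change of -1.25 ± 0.25 (adjusted p = 0.00841). For Col1a1 (gene 12842; chromosome 11, 94936224 to 94953042) the values were 618, 250.3, 321 and 486 against 114, 230.1, 136 and 147 CPM, a change of -1.42 ± 0.31 (0.0109). Both chains were highest in DSS 1 and, within their group, in DSS+AP 2. Per kb of transcript Col1a2 stood at 113 and Col1a1 at 70.7 CPM in DSS.

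Upstream sequence is shown for 3 fibrillar genes: Col3a1 and Col1a2, the most abundant collagens per length, and Col5a3, which had the smallest p. The RefSeq promoter table (build GRCm38.p6) held 35 of the 44 members; Col1a1 and Col5a2 are not among them. Of the 250 bases before each start site, the longest stretch outside annotated exons of coding genes (GENCODE M21) and outside RefSeq gene spans is printed. The sequences run 5′ to 3′ on the gene's strand, and capitals mark matches to the CCAAT box, to the TATAAA box or to the GC box GGGCGG, on either strand. The stretches are chr1:45311288-45311537, plus strand, for Col3a1, chr6:4505370-4505492, plus strand, for Col1a2, and chr9:20815118-20815317, minus strand, for Col5a3.
Col3a1: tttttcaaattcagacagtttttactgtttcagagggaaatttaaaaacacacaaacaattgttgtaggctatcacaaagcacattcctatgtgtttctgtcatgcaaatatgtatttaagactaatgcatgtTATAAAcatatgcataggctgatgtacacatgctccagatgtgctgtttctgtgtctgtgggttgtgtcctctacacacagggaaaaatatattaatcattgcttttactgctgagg
Col1a2: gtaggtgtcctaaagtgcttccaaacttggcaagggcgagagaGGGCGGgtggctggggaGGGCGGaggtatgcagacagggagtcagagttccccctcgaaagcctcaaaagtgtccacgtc
Col5a3: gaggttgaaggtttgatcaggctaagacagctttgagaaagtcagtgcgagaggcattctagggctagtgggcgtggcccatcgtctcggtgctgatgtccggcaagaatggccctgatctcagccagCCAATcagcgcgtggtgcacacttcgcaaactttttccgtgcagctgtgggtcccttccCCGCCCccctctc
In these stretches Col3a1 had TATAAA 117 bases before the start site, Col1a2 had GGGCGG at 205 and 188 bases, and Col5a3 had CCAAT at 122 bases and GGGCGG on the other strand at 63 bases before it. Over the full windows, 250 bases before to 50 after the start, CCAAT was present in 13 of 38 collagen windows (34.2%) and in 37.4% of all 32851 promoters. TATAAA was in 13.2% against 13.6%, and GGGCGG in 60.5% against 35.7%. These are matches of letters and not sites of binding.

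Type V collagen nucleates type I fibrils and limits their width. Its 3 chains fell together. Col5a1 (chromosome 2, 27886381 to 28039510) was at 301, 127, 176 and 222 CPM in DSS and 73, 125, 71.05 and 82.2 CPM in DSS+AP, a change of -1.23 ± 0.28 (edgeR adjusted p = 0.0119). The groups barely separated, with DSS 2 just above DSS+AP 2. Col5a2 (chromosome 1, 45374331 to 45503282) stood at 302, 129, 160.1 and 218 and 55.4, 105, 56.7 and 67.6 CPM (-1.50 ± 0.30; 0.00769). It lies 24.6 kb from Col3a1 on chromosome 1. Col5a3 (chromosome 9, 20770050 to 20815117), the least abundant of the 3, had the smallest p of all collagen genes. Its levels were 62.02, 34.9, 42.2 and 45.5 CPM in DSS and 11.3, 17.98, 12.03 and 13.4 CPM in DSS+AP, well apart, with a change of -1.75 ± 0.21 (adjusted p = 0.00320).

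Among the minor fibrillar genes Col27a1 (chromosome 4, 63214009 to 63334991) fell from 40.2, 25.2, 34.1 and 35.2 to 17.9, 18.3, 14.5 and 15.2 CPM, with no overlap (-1.03 ± 0.15; edgeR adjusted p = 0.00357). Col11a1, a chain of the cartilage-type fibril that activated fibroblasts can also express, was low, at 1.52 to 3.40 and 0.310 to 0.992 CPM (-1.73 ± 0.37; 0.0104), and with 5 to 17 counts per DSS+AP library the size of its fall is uncertain. Col11a2 at -0.58 ± 0.23 (adjusted p = 0.0826) and Col24a1 at -0.38 ± 0.27 (0.315) did not pass, both between 1.40 and 4.01 CPM in the 8 libraries. Their groups overlapped.

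**Figure D4:**
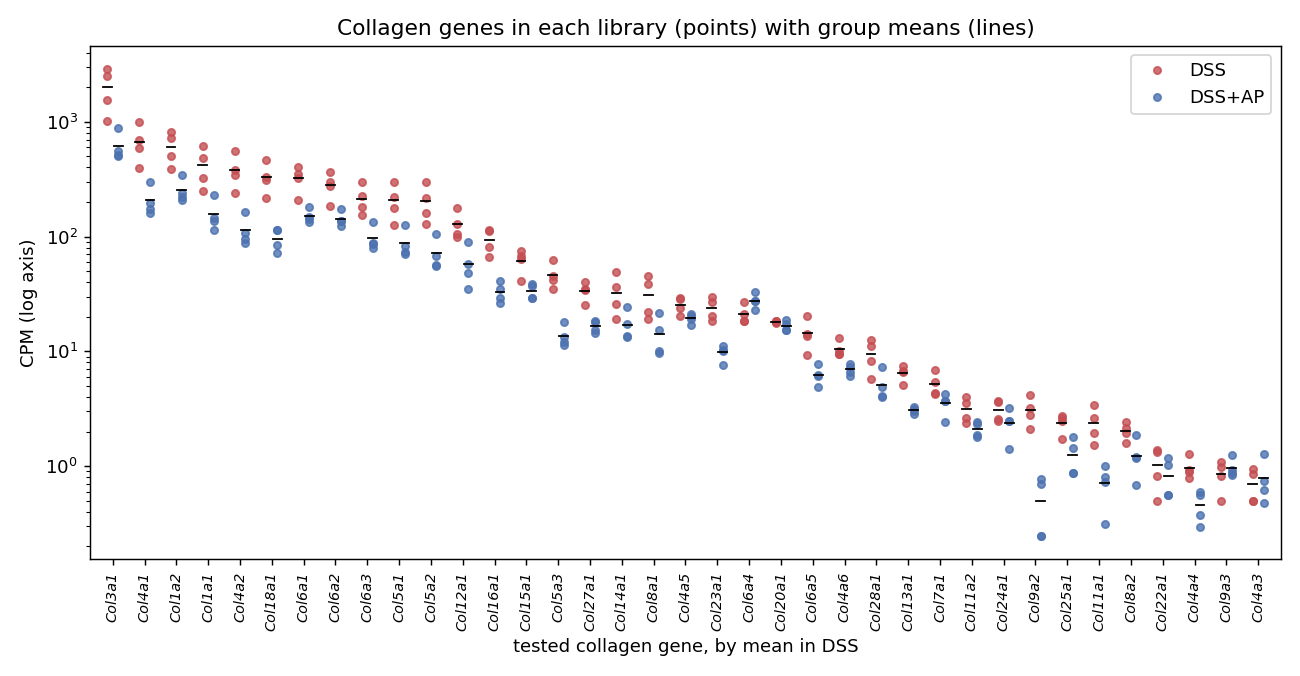
CPM (log y axis) of the 37 tested collagen genes in each library, ordered by their mean in DSS; points are libraries and short lines group means. Group means separate for most genes across the range, while the libraries of genes such as Col4a5, Col6a4, Col20a1, Col22a1, Col9a3 and Col4a3 overlap.

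Chains that share a trimer or fibril were compared by their log2 ratio in each library, 7 pairs in all. Col4a2 over Col4a1 was -0.81 ± 0.0550 in DSS and -0.86 ± 0.0154 in DSS+AP (mean ± SD, n = 4 per group; exact two-sided permutation p = 0.114, adjusted over the 7 pairs 0.133). In 2 pairs the groups did not overlap. Col5a2 over Col5a1 went from -0.03 ± 0.0737 to -0.31 ± 0.0644 and Col6a2 over Col6a1 from -0.20 ± 0.0481 to -0.10 ± 0.0341. Each had an exact permutation p of 0.0286 (n = 4 per group), the smallest that 70 assignments allow, and 0.100 after adjustment, so neither passed. Col3a1 over Col1a1 was 2.22 ± 0.140 and 1.98 ± 0.115 (exact permutation p = 0.0571, n = 4 per group; adjusted 0.120). The ratio of Col1a2 to Col1a1 differed by 0.16 and that of Col5a1 to Col1a1 by 0.18 (exact permutation p = 0.0857 and adjusted 0.120 for each), and Col6a3 over Col6a1 by -0.08 (0.714). None of the 7 ratios passed after adjustment. With 70 assignments, a pair can pass only if most of the 7 pairs reach the smallest p too. The test can therefore neither establish nor dismiss a change in a single ratio.

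**Figure D5:**
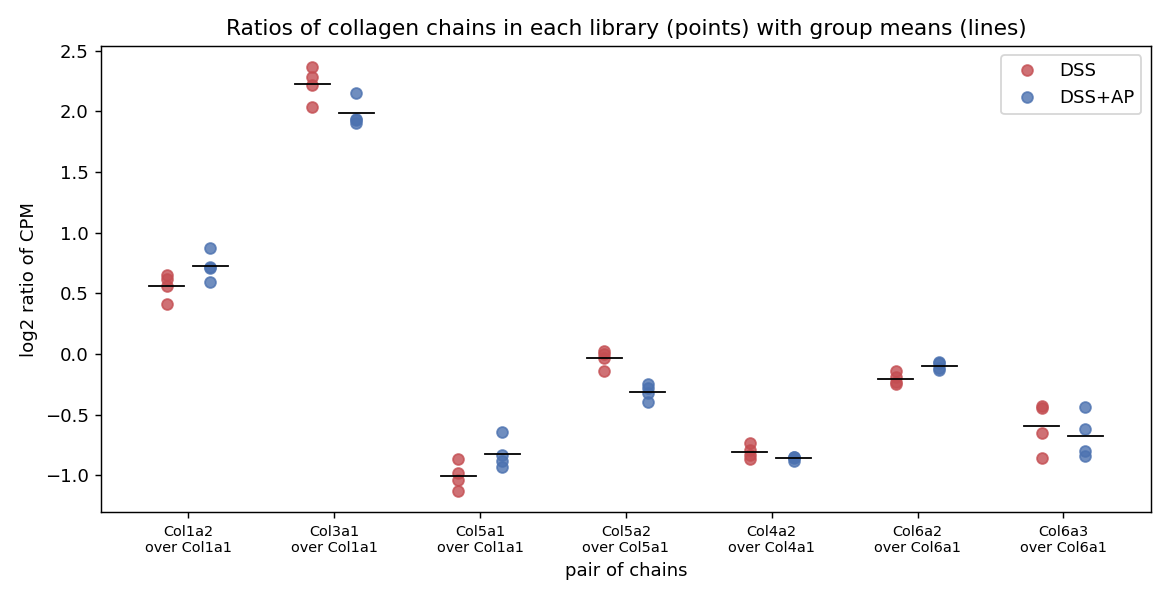
Log2 ratio of CPM (y axis) for 7 pairs of collagen chains in each library (points) with group means (lines). The libraries of the 2 groups are apart for Col5a2 over Col5a1 and for Col6a2 over Col6a1, and overlap for the other pairs.

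Type IV collagen divides into the widespread trimer of Col4a1 and Col4a2 chains and rarer trimers of the Col4a3 to Col4a6 chains. The widespread chains fell the most in this class. Col4a1 (chromosome 8, 11198423 to 11312889) was at 988, 399, 593 and 688 CPM in DSS and 161, 297, 173 and 195 CPM in DSS+AP (-1.69 ± 0.29; edgeR adjusted p = 0.00488). Col4a2 (chromosome 8, 11312805 to 11449287), which starts head to head with Col4a1 and overlaps it by 85 bases in RefSeq, was at 554, 239.5, 343 and 378 and 87.4, 164, 95.8 and 108 CPM (-1.73 ± 0.28; 0.00426). Neither gene's groups overlapped. On chromosome X the next pair, Col4a6 and Col4a5, lies 1.27 kb apart. Col4a6 went from 9.47, 10.1, 9.54 and 13.1 to 7.32, 6.66, 6.14 and 7.68 CPM (-0.60 ± 0.15; 0.0168) with no overlap; whether this fall differs from that of Col4a1 was not tested. Col4a5, whose chain joins trimers with Col4a6, was at 23.6, 20.4, 28.4 and 29.2 and 16.98, 19.1, 20.2 and 21.1 CPM and just missed the threshold (-0.39 ± 0.13; adjusted p = 0.0533). It passed without DSS 2 (0.0224), with no scaling factors (0.0326), with upper-quartile factors (0.0445), in DESeq2 (0.0384) and in limma-voom (0.0183), and Col4a6 lost its call without DSS+AP 1 or DSS+AP 3 (0.0520 and 0.0526).

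The third pair, Col4a4 and Col4a3 on chromosome 1, was near the limit of detection. Col4a4 stood at 0.780, 0.883, 0.929 and 1.28 and 0.600, 0.292, 0.558 and 0.372 CPM, or 14 to 21 and 5 to 10 counts (-1.07 ± 0.31; edgeR adjusted p = 0.0299). Leaving out any library but DSS 1, DSS 2 and DSS+AP 1 ended its call (0.0525 to 0.0878), as did DESeq2 (0.0552). Col4a3, at 0.496 to 0.942 and 0.480 to 1.28 CPM, had a change of 0.17 ± 0.38 (adjusted p = 0.760) and overlapping groups. Of its exon bases, 5.65% are shared with a gene on the other strand.

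Of the collagens at the border of basement membrane and stroma, Col18a1 fell the most. It encodes a heparan sulfate collagen of vessel and epithelial basement membranes whose end fragment is endostatin (chromosome 10, 77052178 to 77166530). Its level was 462, 217, 314 and 330.5 CPM in DSS and 71.5, 114, 83.9 and 114 CPM in DSS+AP (-1.79 ± 0.24; edgeR adjusted p = 0.00324), and the lowest DSS library lay well above the highest DSS+AP library. Col15a1 (chromosome 4, 47207655 to 47313167), a related collagen of muscle and capillary basement membranes, was at 74.3, 41.2, 63.3 and 67.6 and 29.1, 38.8, 37.1 and 29.4 CPM (-0.88 ± 0.18; 0.00934), with DSS 2 only just above DSS+AP 2. Col7a1, which makes the anchoring fibrils of squamous epithelia, was low, at 4.35, 5.41, 4.21 and 6.82 and 2.40, 3.68, 4.28 and 3.72 CPM, and did not pass (-0.56 ± 0.23; 0.0954).

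Type VI collagen makes beaded filaments that link cells to the fibrils around them. Its 3 main chains were lower, with log2 changes from -0.97 to -1.14. Col6a1 (chromosome 10, 76708792 to 76726044) was at 400.1, 209, 325 and 354 CPM in DSS and 135, 182, 143 and 149 CPM in DSS+AP (-1.08 ± 0.19; edgeR adjusted p = 0.00534). Col6a2 (chromosome 10, 76595756 to 76623630), 85.2 kb away on chromosome 10, was at 363, 183, 276 and 298 and 125, 173, 137 and 136 CPM (-0.97 ± 0.20; 0.00835). Groups were apart for both. Col6a3 (chromosome 1, 90766860 to 90844001), the long chain, was at 297, 154, 179 and 225 and 88.1, 134, 79.7 and 85.9 CPM (-1.14 ± 0.23; 0.00862).

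The cluster of Col6a6, Col6a5 and Col6a4 on chromosome 9 encodes chains that can replace Col6a3 in the trimer. Neighbours in it had changes of opposite sign. Col6a5 (chromosome 9, 105856070 to 105962463) was at 20.3, 9.36, 14.3 and 13.6 CPM in DSS and 6.12, 7.82, 4.90 and 6.19 CPM in DSS+AP, with no overlap (-1.20 ± 0.24; edgeR adjusted p = 0.00821). Col6a4 (chromosome 9, 105990318 to 106096828), 27.9 kb away, was at 18.3, 27.1, 21.3 and 18.2 and 27.5, 22.8, 32.6 and 27.3 CPM, higher in the mean of DSS+AP but overlapping because DSS 2 exceeded DSS+AP 2, and did not pass (0.37 ± 0.16; 0.100). Without DSS 2 it passed as higher (0.57; adjusted p = 0.0140), the sole member to do so when 1 library was left out. Opposite strand genes cover 3.39% of its exon bases. In both groups Col6a4 exceeded Col6a5 per kb of transcript (2.88 and 1.55 CPM in DSS, 3.73 and 0.674 in DSS+AP).

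The upstream stretch of Col6a4, chosen by the same rule and given with the same motifs in capitals, is shown because its gene was the tested member with the most positive fold change (chr9:106096829-106096941, minus strand).
Col6a4: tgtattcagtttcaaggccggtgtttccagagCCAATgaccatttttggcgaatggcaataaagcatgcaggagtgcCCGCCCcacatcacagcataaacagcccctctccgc
It held CCAAT 218 bases before the start site and GGGCGG on the other strand at 173 bases.

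Type VIII collagen forms hexagonal nets in vessel walls. Col8a1 (chromosome 16, 57624256 to 57754737) was at 45.4, 19.1, 21.9 and 38.7 and 15.4, 21.8, 9.98 and 9.66 CPM and passed with overlapping groups (-1.14 ± 0.35; edgeR adjusted p = 0.0380). Leaving out any library but DSS 2, DSS 3 and DSS+AP 2 ended that call (0.0837 to 0.105), as did leaving the low-count filter off (0.0585). Col8a2 was low at 1.59 to 2.44 and 0.682 to 1.86 CPM and did not pass (-0.73 ± 0.30; 0.0963), though it did without DSS+AP 4 (0.0472).

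Among the fibril-associated genes 4 of 7 tested were lower. Col16a1 (chromosome 4, 130047817 to 130099277) was at 115, 65.9, 81.7 and 111 CPM in DSS and 29.3, 40.9, 26.6 and 34.9 CPM in DSS+AP, with no overlap (-1.50 ± 0.20; edgeR adjusted p = 0.00324). Col12a1 (chromosome 9, 79598987 to 79721141), which bridges fibrils in tissue under strain, was at 178, 106, 100.01 and 129 and 48.5, 89.03, 34.9 and 57.4 CPM (-1.16 ± 0.29; 0.0175), and lost its call without DSS 1 or DSS+AP 1 (0.0543 to 0.0603). Col14a1 (chromosome 15, 55307644 to 55520803) was at 25.6, 18.95, 36.4 and 49.1 and 17.4, 24.2, 13.5 and 13.5 CPM with overlapping groups (-0.92 ± 0.30; 0.0490). Its call ended with the loss of any library but DSS 2 and DSS+AP 2 (0.0636 to 0.131), with relative log expression factors (0.0556) and with no filter on low counts (0.0657). Col9a2 (chromosome 4, 121039566 to 121055325), a chain of type IX collagen, had the largest fall of the tested members, from 3.23, 2.12, 2.79 and 4.14 to 0.780, 0.701, 0.248 and 0.248 CPM (-2.61 ± 0.40; 0.00384). It had 4 to 13 counts per DSS+AP library, so the size of that fall is uncertain.

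The other 3 tested genes of this class did not pass. Col20a1 was at 18.5, 18.1, 17.6 and 18.3 CPM in DSS and 17.2, 15.4, 15.4 and 18.8 CPM in DSS+AP (-0.12 ± 0.10; edgeR adjusted p = 0.379). Col9a3, at 0.502 to 1.10 and 0.840 to 1.24 CPM, was at 0.19 ± 0.29 (0.643), and 6.07% of its exon bases are shared with Tcfl5 on the other strand. Col22a1, at 0.496 to 1.39 and 0.558 to 1.17 CPM, was at -0.29 ± 0.40 (0.599).

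The 3 tested transmembrane collagens fell. Col23a1 (chromosome 11, 51289679 to 51583925) was at 20.1, 18.4, 26.6 and 29.8 CPM in DSS and 11.04, 10.1, 7.63 and 10.3 CPM in DSS+AP (-1.28 ± 0.18; edgeR adjusted p = 0.00350). Col13a1 (chromosome 10, 61838234 to 61979206), a collagen of cell adhesion sites, was at 7.47, 5.12, 6.57 and 6.76 and 3.12, 3.27, 2.85 and 3.04 CPM (-1.08 ± 0.16; 0.00365). For both, every DSS+AP library was lower than every DSS library. Col25a1, at 2.62, 2.71, 1.73 and 2.50 and 1.80, 0.876, 0.868 and 1.42 CPM, passed with overlapping groups (-0.94 ± 0.29; 0.0376). That call ended with the loss of any library but DSS 3 and DSS+AP 1 (0.0655 to 0.0972), in limma-voom (0.0707) and with no filter on low counts (0.0544). Col28a1, a collagen with von Willebrand factor domains known from peripheral nerve, was at 11.1, 5.77, 8.18 and 12.5 and 4.86, 7.30, 4.03 and 4.09 CPM (-0.89 ± 0.28; 0.0435). Its groups overlapped, and among fits with 1 library left out its call held without DSS 2 or DSS+AP 2 (0.0620 to 0.120 in the others). It did not hold with no low-count filter (0.0516). Enteric glia markers were lower in the same mice, at a median log2 fold change of -1.58. Whether the fall of Col28a1 is tied to those markers was not tested.

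The 7 untested members were too scarce. Col17a1, the hemidesmosome collagen of squamous epithelium, had 14, 4, 9 and 10 counts in DSS and 5, 3, 3 and 5 in DSS+AP. Col26a1 had 4, 2, 7 and 5 against 1, 0, 0 and 2 counts, Col6a6 0, 5, 10 and 4 against 1, 1, 1 and 0, and Col9a1 2, 3, 8 and 2 against 3, 2, 1 and 0. The cartilage gene Col2a1 had at most 1 count in any library, and Col10a1, of growth plate cartilage, and Col19a1 at most 2. A count of 0 in a DSS+AP library allows up to 3 counts, or 0.175 to 0.186 CPM, a floor that covers counting error only. These 7 genes were not tested, and no comparison between groups is drawn from their counts.

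Libraries kept a common order across members. DSS 1 had the highest value of its group in 24 of the 37 tested members and DSS 2 the lowest in 24. DSS+AP 2 was the highest of its group in 24, and DSS+AP 1 and DSS+AP 3 were the lowest in 15 and 14. The median member stood in DSS 1 at 1.23 times its group's mean and in DSS 2 at 0.750 times, against 1.24 times in DSS+AP 2 and 0.867 times in DSS+AP 3. The same libraries had the extreme levels of the smooth muscle mean, 7.56 log2 CPM in DSS 1, 6.94 in DSS 2 and 6.81 in DSS+AP 2. For fibroblasts, endothelium and enteric glia DSS 2 was also the lowest and DSS+AP 2 the highest of its group. The highest DSS library there was not DSS 1. It was DSS 4 for fibroblasts (5.56, DSS 1 5.54) and endothelium (4.80, DSS 1 4.74), and DSS 3 for glia (3.48, DSS 1 3.38). The part of these marker levels in the spread of the collagen values was not tested.

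The genes that fold and modify procollagen in the endoplasmic reticulum were mostly lower. Of 21 tested, 13 fell and 2 rose, against 20.4% and 8.84% of all genes, so the share that rose is near the background (median -0.69). Prolyl 3-hydroxylase gene P3h2 changed by -1.33 ± 0.19 (edgeR adjusted p = 0.00344), the lysyl hydroxylase gene Plod2, which favours stable cross-links, by -2.04 ± 0.33 (0.00447), and Tmem38b, an ion channel gene needed for collagen processing, by -0.74 ± 0.11 (0.00357). Serpinh1, which encodes the collagen chaperone HSP47, went from 216 ± 68.9 to 109 ± 30.4 CPM (-0.99 ± 0.25; 0.0194). The 2 that rose were P4hb, at 0.25 ± 0.08 (0.0479), which encodes a disulfide isomerase used by many secreted proteins, and Creb3l1, at 0.67 ± 0.14 (0.00884), a transcription factor of secretory cells and of collagen-making cells. Creb3l1 stood at 108, 134, 146 and 101 CPM in DSS and 181, 224, 202 and 170.4 CPM in DSS+AP.

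Outside the cell, 9 of 14 tested genes of procollagen trimming and cross-linking fell and 0 rose (median -0.97), against 20.4% and 8.84% of all genes. Of the 9, Tll1, with 10 counts in DSS+AP 1, met the filter on low counts in 4 DSS libraries but not in all DSS+AP libraries. Its entry into the test rests on the DSS group. Lox, the lysyl oxidase gene that starts cross-links, was at 76.6, 24.8, 36.7 and 44.9 CPM in DSS and 7.74, 14.1, 8.74 and 12.5 CPM in DSS+AP (-2.09 ± 0.35; edgeR adjusted p = 0.00458). Bmp1, which cuts the C-terminal propeptide, changed by -1.06 ± 0.13 (0.00321), and Pxdn, a peroxidase that cross-links type IV collagen, by -0.94 ± 0.16 (0.00461). Proteoglycans and glycoproteins that shape fibrils were lower in 13 of 15 (median -1.18). They included decorin (Dcn, -1.35 ± 0.18), lumican (Lum, -1.18 ± 0.16) and thrombospondin (Thbs1, -1.75 ± 0.28), with adjusted p of 0.00324, 0.00329 and 0.00412.

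Genes that break collagen down were lower as well, 8 of 8 tested (median -1.98), against 20.4% of all genes. Mmp8, with 6 and 7 counts in DSS+AP 1 and DSS+AP 3, met the filter on low counts in 4 DSS libraries but not in all DSS+AP libraries. Its entry into the test rests on the DSS group. Mmp2, a gelatinase gene of stromal cells, changed by -1.33 ± 0.17 (edgeR adjusted p = 0.00324) and the cysteine protease gene Ctsk by -1.54 ± 0.27 (0.00555). Mmp3, encoding stromelysin, was at 373, 73.8, 98.8 and 167 CPM in DSS and 10.9, 35.5, 8.49 and 14 CPM in DSS+AP (-3.37 ± 0.64; 0.00744), a wide spread in both groups with no overlap. Of 9 collagen receptor genes tested, 5 fell (median -0.45). Ddr2, the discoidin receptor of mesenchymal cells, changed by -1.33 ± 0.13 (0.00320), the uptake receptor gene Mrc2 by -1.30 ± 0.16 (0.00320) and the integrin gene Itga1 by -0.99 ± 0.22 (0.0114). The other 2 that fell were Itgb1 at -0.44 ± 0.11 (0.0209) and Lair1 at -0.58 ± 0.19 (0.04995). The 4 that did not pass were Ddr1 at 0.11 ± 0.14 (0.580), Itga2 at 0.24 ± 0.18 (0.336), Itga10 at -0.45 ± 0.22 (0.147) and Itga11 at 0.11 ± 0.19 (0.685).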

How the data were processed

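RNA of colon tissue from 8 mice was sequenced, 4 per group. Libraries came from a SMARTer mRNA kit, per the labels' protocols. RSEM 1.2.8, Bowtie2 2.2.5 and HISAT2 2.1.0 appear without roles in the submitters' processing notes, with the build GRCm38.p6; strand use in counting was not given in the sources used here. The deposited values are the authors' estimated counts per gene, not scaled to depth; the values of the 44 members were whole numbers in every library. Totals ran from 16089081 to 17104290 counts per library, which sets the precision. Libraries of a group differed beyond sampling noise (smallest chi-square per gene 9.96 over the pairs), and each counted as 1 mouse.

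Counts were rounded, filtered with filterByExpr, TMM-scaled and fitted over all genes with edgeR 4.0.16 (R 4.3.3; robust quasi-likelihood F test, no covariate); adjusted p-values are Benjamini-Hochberg over 14578 genes. CPM use the TMM-scaled totals, and log2 CPM a prior count of 2. Levels per kb use the longest protein-coding transcript of GENCODE M21 (GRCm38); gene coordinates are RefSeq's. Protein sequence features, part of the plan, are not analysed here. Steps were tested on simulated data. Alternatives included limma 3.58.1 and DESeq2 1.42.0.

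The members and lists were chosen with earlier results of these data known. Values by library are given for the 3 most abundant genes per length in each class, up to 4 called genes of smallest p per class and the chains compared as ratios; other lists give up to 3 called genes of smallest p. Col6a4, Col8a1, Col20a1, Serpinh1, P4hb, Creb3l1, Erbb3, Hapln1, Chad, Epcam and the other collagen receptors were added after their values were seen. So were S100b, Tll1, Mmp8, Tff3, Hoxa10 and Hoxd9. 1 other gene that the rule names is not reported here.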

Additional observations from a re-analysis of the deposited data

Results flagged for a closer look

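Some libraries stood apart from the other 3 of their group by more than a limit that chance passes in about 1 of 20 groups. This held in 8 of 152 groups checked, about the share that chance gives. The cases are listed as description only. In DSS+AP 2, Col3a1 (881 CPM, next 559), Col6a3 (134, next 88.1) and Hoxb13 (13.1, next 0.720) were far above the other DSS+AP libraries. DSS 4 was apart for Col4a6 (13.1 CPM, next 10.1). DSS 2 was far below its group for the collagen uptake receptor gene Mrc2 (26.7 CPM, next 41.0) and DSS+AP 4 below its own for Myocd, a smooth muscle transcription factor gene (4.71, next 5.78). DSS+AP 1 was apart in 2 ratios of chains, Col3a1 over Col1a1 (2.15, next 1.94 on the log2 scale) and Col4a2 over Col4a1 (-0.88, next -0.85).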

How the results depend on the processing

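The count of lower members, 27, was 26 to 28 with other scaling factors or a filter of 1 CPM in 4 libraries, 23 with no filter, and 27 with DESeq2, limma-voom or no robust estimation. Leaving out 1 library gave 21 (without DSS+AP 3) to 27. The count of higher members, 0, was 1 with limma-voom and 0 to 1 when 1 library was left out (Col6a4 in each case). With the smooth muscle or posterior Hox mean as a covariate the lower count was 0, and in either fit 0 of all genes passed. Both means separated the groups fully, so these fits cannot tell the covariate from the group. Beside the muscle mean 5 members changed sign, none past the threshold: Col9a3 (-0.38), Col22a1 (0.71), Col8a1 (0.24), Col6a4 (-0.25) and Col28a1 (0.16). So did Hoxb13 (1.16) and Sox9 (-0.24). Col4a3 was at -0.063 with limma-voom, and at -0.18 (without DSS+AP 2) to 0.41 when 1 library was left out. Replicate numbers did not pair the mice: deviations of same-numbered libraries correlated at -0.136, -0.452, 0.359 and -0.185. With the replicate number as a block the lower count was 18 and the higher 0. Ratios of chains kept their sign in every alternative run. Depth limits the 7 untested members and the sizes of the falls of Col9a2, Col11a1 and Col4a4.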
